A study of Lytechinus variegatus with 64 samples.

Results

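Tube feet and interambulacral plates of adult sea urchins (Lytechinus variegatus) were compared across all genes of a polyA RNA-seq count table. The comparison used the 4 tube foot libraries and the 4 plate libraries, 8 of the 64 libraries in the series, chosen by the tissue in their labels. The table held 25887 usable genes, of which 18996 had enough counts in these 8 libraries to be tested. All libraries of both groups came from wild-type adults bought from a supplier and dissected, and the labels give no age, sex or treatment for them. Peristomial membrane (3 libraries), radial canal (4 libraries), spines (1 green, 1 mixed, 1 red and 1 white library), coelomic fluid (1 library) and the other adult tissues and eggs of the same series, all wild type, served as reference tissues. Whether replicates come from separate animals is not stated in the labels, and the p-values therefore reflect variation between libraries that may be technical.

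Tube feet are the soft, extensible appendages of the water vascular system, the hydraulic canals of echinoderms. Each has a muscular, innervated stem and a disc that secretes adhesive, and tube feet serve attachment, locomotion, feeding and sensing. The plates are calcite ossicles of the body wall, built by skeleton-forming cells, covered by epidermis and bearing the spines. Interambulacral plates lie between the double rows of plates through whose pores the tube feet pass. The radial canal supplies the tube feet with fluid, the peristomial membrane is the soft skin that surrounds the mouth, and the coelomic fluid carries the immune cells called coelomocytes. Genes are given by the locus identifiers of the table, because no source used here pairs them with product names, so no function is stated for any of them and the tissue labels could not be checked against known marker genes such as those of skeleton or nerve.

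Library totals ran from 21668566 to 26831276 counts in tube foot and from 23398585 to 32268962 in the plates, and the 10 most abundant genes took between 9.94% and 14.5% of a library. Expression levels are given as library-size scaled counts (CPM). Genes at 1 CPM or more numbered 16430 ± 72.5 in tube foot and 16670 ± 179 in the plates (SD, n = 4 each). Across genes, Spearman's rho was 0.882 to 0.921 between tube foot libraries, 0.904 to 0.974 between plate libraries and 0.800 to 0.866 between the groups, as a description with genes that are not independent. Plates replicates 1 and 2 were the closest pair at 0.974, and no 2 libraries agreed within sampling noise. Plates replicate 1 stood apart in another way, since it held more RNA of genes high in tube foot than the other plate libraries, and values that moved by more than 1.5 times without it are given both ways for the genes named. In bulk tissue, fewer cells of a type and less RNA per cell cannot be told apart.

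Of the 18996 genes tested, 974 (5.13%) were higher in tube foot and 942 (4.96%) were higher in the plates, by edgeR's quasi-likelihood test at an adjusted p under 0.05 and a log2 fold change of at least 1 in either direction. Over the whole set of tested genes the median log2 fold change was 0.01. Among the called genes, 513 of the tube foot genes and 561 of the plate genes differed at least 4-fold, and 209 and 202 differed at least 16-fold. Their median size was 2.07 on the log2 scale for the tube foot genes and 2.33 for the plate genes. These sizes describe genes that had to pass the thresholds, which favour large changes. On simulated data with 200 changed genes, the test recovered 1.49% of changes of 1 and 26.9% of changes of 2 on the log2 scale. A change of 1 lies at the required threshold itself. The real data held more called genes than the simulation had changed genes, so these shares need not carry over.

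The genes higher in tube foot took 12.1% to 13.5% of all counts in the tube foot libraries and 2.59% to 3.41% in the plates. The genes higher in the plates took 10.1% to 12.3% of the plate counts and 1.70% to 2.61% of the tube foot counts. These shares describe genes chosen by the same contrast. With the added requirements of a mean of at least 10 CPM on the higher side and no overlap between the 4 libraries of each group, 606 genes (3.19%) remained higher in tube foot and 588 (3.1%) higher in the plates. Without plates replicate 2 the counts fell to 632 higher and 615 lower, the only library whose removal moved either count by more than 1.5 times. Testing against a fold of 2 (edgeR's glmTreat) left 332 and 350, and a single fit of all 53 libraries of the 14 replicated adult types, which shares its estimate of spread with other tissues, left 95 and 182.

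**Figure D1:**
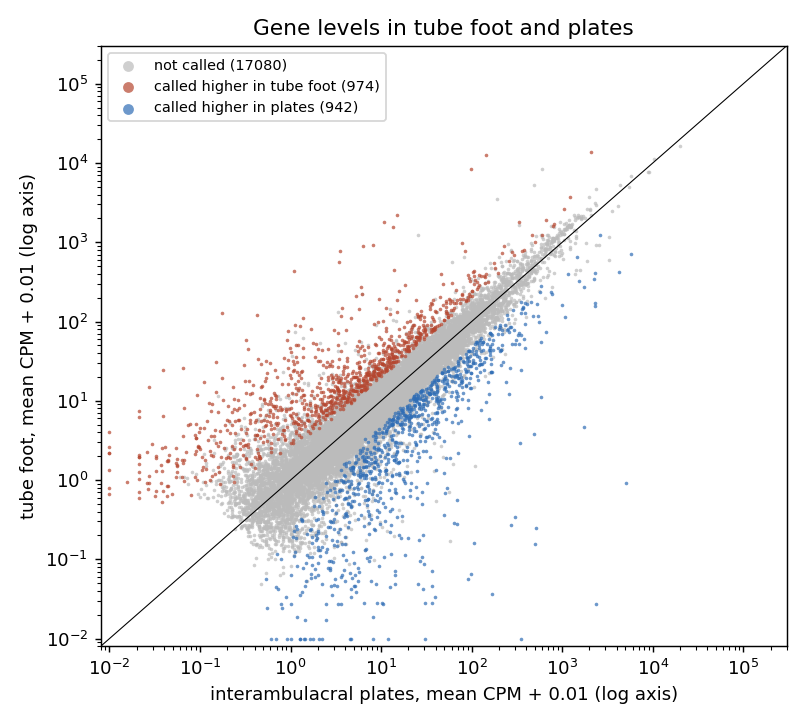
Mean level of each of the 18996 tested genes in tube foot (vertical axis, CPM + 0.01, log scale) against the plates (horizontal axis, CPM + 0.01, log scale), with 974 genes called higher in tube foot in red, 942 called higher in the plates in blue and the diagonal marking equal levels. The blue points reach farther from the diagonal at high levels, where several genes above 100 CPM in the plates lie below 1 CPM in tube foot.

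The most abundant of the genes higher in tube foot was LOC121422208. It measured 19960, 13292, 6740 and 15460 CPM in tube foot replicates 1 to 4 and 3105, 1967, 1777 and 1504 CPM in plates replicates 1 to 4. Every tube foot library lay above every plate library, and the log2 fold change was 2.72 ± 0.42 (SE), with an edgeR adjusted p of 0.00448. Its level was also high in the 4 spine libraries, at 5510 to 8749 CPM, and averaged 2329 CPM in the peristomial membrane. In the mouth, the next tissue, its mean was 244 CPM.

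LOC121413943 and LOC121413940, the next most abundant, were close to absent from most plate libraries and from the spines. LOC121413943 measured 5413, 13221, 8010 and 23229 CPM in tube foot and 547, 1.25, 14.7 and 9.95 CPM in the plates. LOC121413940 measured 3342, 10575, 8265 and 11754 CPM in tube foot and 379, 0.512, 11.0 and 7.61 CPM in the plates. In both genes plates replicate 1 lay far above the other plate libraries, though still below every tube foot library. The log2 fold changes were 6.44 ± 1.79 (edgeR adjusted p = 0.0485) and 6.41 ± 1.79 (adjusted p = 0.0495). Without plates replicate 1 they were 10.51 (adjusted p = 0.00241) and 10.39 (adjusted p = 0.00312). Both calls lay close to the threshold and were lost in 9 and 11 of the 14 other settings tried. No spine library exceeded 0.276 CPM for the first gene or 0.0786 CPM for the second, whereas the peristomial membrane libraries ranged from 11.4 to 1489 CPM and from 5.31 to 988 CPM.

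These genes flank LOC121413941 in the gene order of the RefSeq assembly Lvar_3.0, and the 3 genes are consecutive. LOC121413941, looked up after their values were seen, measured 372, 1248, 1393 and 1939 CPM in tube foot and 98.7, 0.256, 2.45 and 1.09 CPM in the plates. It showed the same excess in plates replicate 1 and did not pass the test (log2 fold change 5.59 ± 1.72, edgeR adjusted p = 0.0693). Without that library the log2 fold change was 9.95 (adjusted p = 0.00172). Neighbouring genes can be near-identical copies whose reads the counting may split, which was not tested, so the value of each single gene is uncertain.

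The 2 genes with the largest fitted fold changes were less abundant, and each varied widely between tube foot libraries. LOC121417076 measured 1.26, 26.6, 15.4 and 16.2 CPM in tube foot, and its only plate reads were 2 counts in replicate 3. The ratio of tube foot to plates was 988, with a 95% counting interval of 274 to 8160 (edgeR adjusted p = 0.00265). By mean level tube foot was not its highest tissue, since the rectum averaged 56.2 ± 89.7 CPM (SD, n = 3), a wide spread. The mixed spine library held 33.3 CPM, and no other spine library exceeded 0.389 CPM. LOC121406559 measured 498, 8.35, 1.15 and 1.49 CPM in tube foot and 0.525, 0.0320, 0.105 and 0 CPM in the plates. The fitted log2 fold change, 9.41 ± 2.42 (edgeR adjusted p = 0.0361), rested on tube foot replicate 1, and without that library it was 4.37 (adjusted p = 0.0707). Without plates replicate 1 it was 11.36 (adjusted p = 0.0624), and the call was lost in 6 of 13 other settings.

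On the plate side, LOC121424524 and LOC121419866 were abundant in the plates and in the coloured spines and nearly absent from tube foot. LOC121424524 measured 1765, 4116, 7099 and 7210 CPM in the plates and 0.140, 0.0717, 0.0288 and 3.36 CPM in tube foot. Its log2 fold change was -12.52 ± 1.69 (edgeR adjusted p = 0.0030). The green, mixed and red spines held 4342, 5184 and 2704 CPM of it and the white spine 125 CPM. LOC121419866 measured 532, 1176, 4796 and 2990 CPM in the plates, and its only tube foot reads were 2 counts in replicate 1. The ratio of plates to tube foot was 123110, with a 95% counting interval of 34080.5 to 1016560 (edgeR adjusted p = 0.000498). The green, mixed and red spine libraries held 4266, 3306 and 1079 CPM of it and the white library 26.9 CPM. With 1 library a colour, the difference between spine colours has no replicate check.

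LOC121423647 and LOC121418762 were high in the plates and in the peristomial membrane, and they were also well expressed in tube foot. LOC121423647 measured 4913, 5021, 6220 and 7081 CPM in the plates and 1604, 191, 172 and 844 CPM in tube foot, a log2 fold change of -3.06 ± 0.71 by edgeR (adjusted p = 0.0239). LOC121418762 measured 2101, 3705, 6841 and 4104 CPM in the plates and 876, 279, 106 and 432 CPM in tube foot, with a log2 fold change of -3.32 ± 0.65 (adjusted p = 0.0121). The first call was lost in 5 of 14 other settings, among them without tube foot replicate 4 and without plates replicates 2 or 3, and the second in 2, the fit of all adult types and the replicate block. For both genes tube foot replicates 1 and 4 were the highest of their group and still lay below every plate library. Their means in the peristomial membrane were 7396 ± 3871 and 6718 ± 3863 CPM (SD, n = 3), with membrane libraries that overlapped the plate libraries, and in lantern muscle, the muscle of the jaw apparatus, 4225 and 2576 CPM.

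LOC121408446 had no count in any tube foot library. It measured 261, 526, 78.3 and 533 CPM in the plates (edgeR adjusted p = 0.00158). It averaged at least 2741-fold above the floor of 3 counts in the tube foot library with the smallest size after scaling. Of the spines, only the mixed library held it above 0.236 CPM, at 32.8 CPM. A similar profile was seen in LOC121408508, which lies 108 places farther along the same chromosome and was named after its values were seen. That gene measured 389, 837, 95.8 and 659 CPM in the plates, 0, 0.0717, 0 and 0.511 CPM in tube foot and 44.8 CPM in the mixed spine library (log2 fold change -11.87 ± 1.30, edgeR adjusted p = 0.00145). Both genes were lowest in plates replicate 3.

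**Figure D2:**
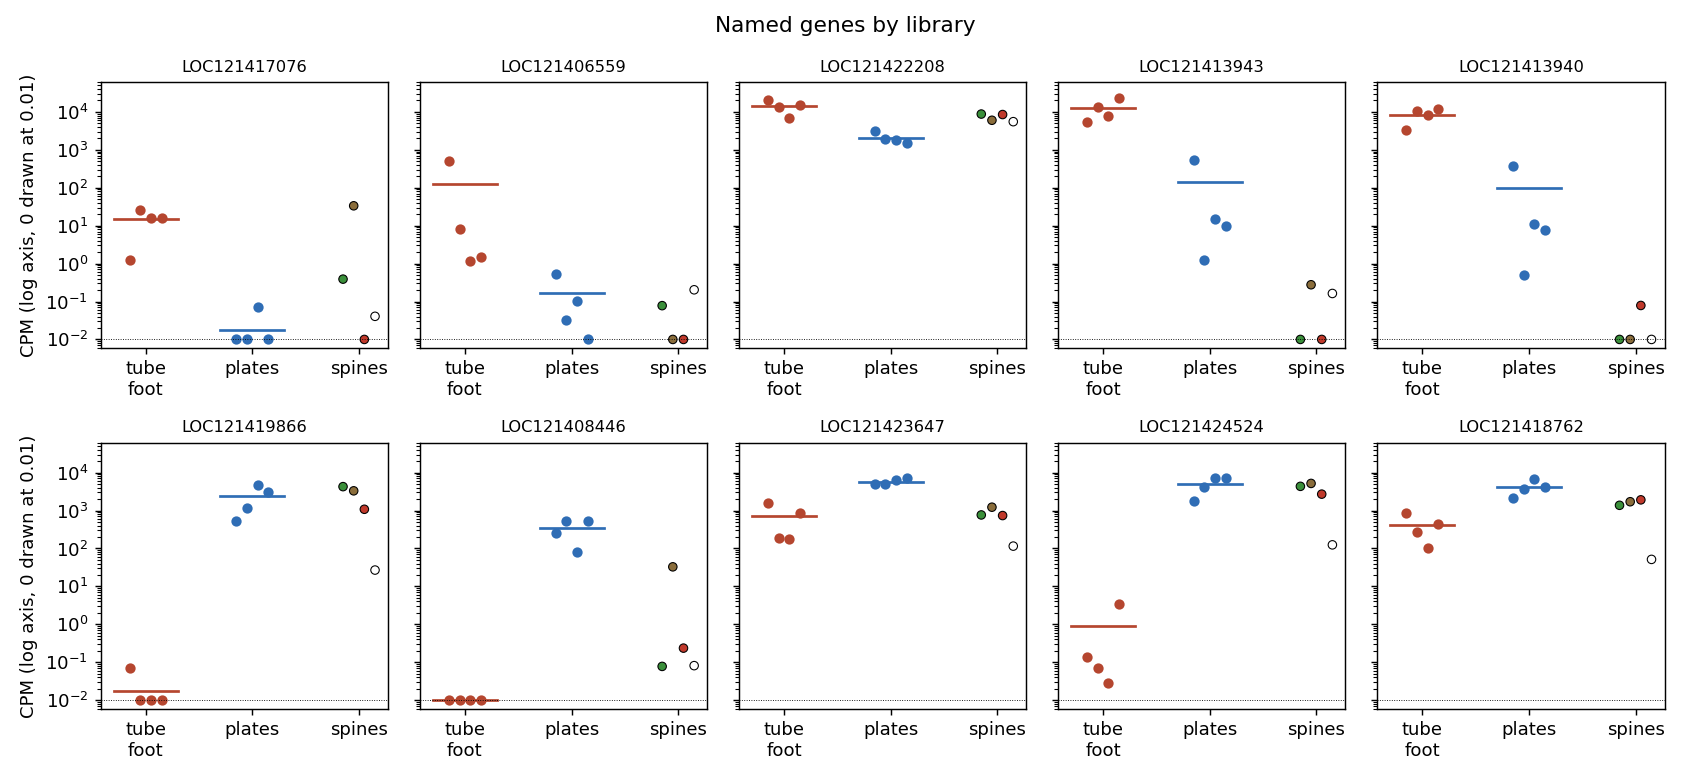
CPM (log scale, values under 0.01 drawn at 0.01) of the 10 genes named by rule in each tube foot, plate and spine library, with genes higher in tube foot in the top row, genes higher in the plates in the bottom row and lines at group means. Plates replicate 1, the leftmost blue point, is the high plate library of LOC121413943 (547 CPM) and LOC121413940 (379 CPM), and the white spine, the rightmost open circle, is the lowest spine for LOC121419866 and LOC121424524.

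Loss of all signal in 1 group was rare. In tube foot, 5 genes had 0 counts in all 4 libraries while averaging at least 10 CPM in the plates, with LOC121408446 the most abundant, and the lower bounds of their folds ran from 83.3 to 2741. For LOC121414860 and LOC121425621, named after their values were seen, the plate mean rested on 1 library and was 0.612 and 2.09 CPM without it. Both fell under the filter on low counts and were not tested. Without the highest plate library, 2 of the 5 genes still averaged at least 10 CPM, LOC121408446 at 289 and LOC121420771 at 24.0 CPM. No gene was at 0 in all 4 plate libraries while averaging at least 10 CPM in tube foot, and without plates replicate 1 there were 2 such genes. At a minimum of 5 CPM the numbers were 9 for tube foot and 8 for the plates. A count of 0 limits the level only down to the floor of 3 counts a library, for counting error only.

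To see which other tissues share the called genes, each gene was assigned to the reference tissue where its mean level was highest. For 24.8% of the genes higher in tube foot that tissue was the spines, against 8.94% of all tested genes and 7.96% of the genes higher in the plates. The ovary followed with 14.9% of the tube foot genes, against 24.4% of all tested genes. The peristomial membrane came next with 10.7% against 5.13% of all tested genes, and the mouth with 9.86% against 3.56%. With the spines left out of the assignment, the shares of the peristomial membrane and of the mouth among the tube foot genes rose to 20.5% and 14.99%.

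The genes higher in the plates were spread over several reference tissues. Coelomic fluid was the highest reference tissue for 15.8% of them, against 8.63% of all tested genes and 4.83% of the tube foot genes. The peristomial membrane accounted for 14.5% against 5.13% of all tested genes, the radial canal for 9.77% against 6.05%, and lantern muscle for 8.49% against 3.27%. Gut was the highest tissue for 10.9% of the plate genes, near its 10.3% among all tested genes, but for 3.08% of the tube foot genes. Coelomic fluid was a single library, so its shares rest on 1 sample.

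**Figure D3:**
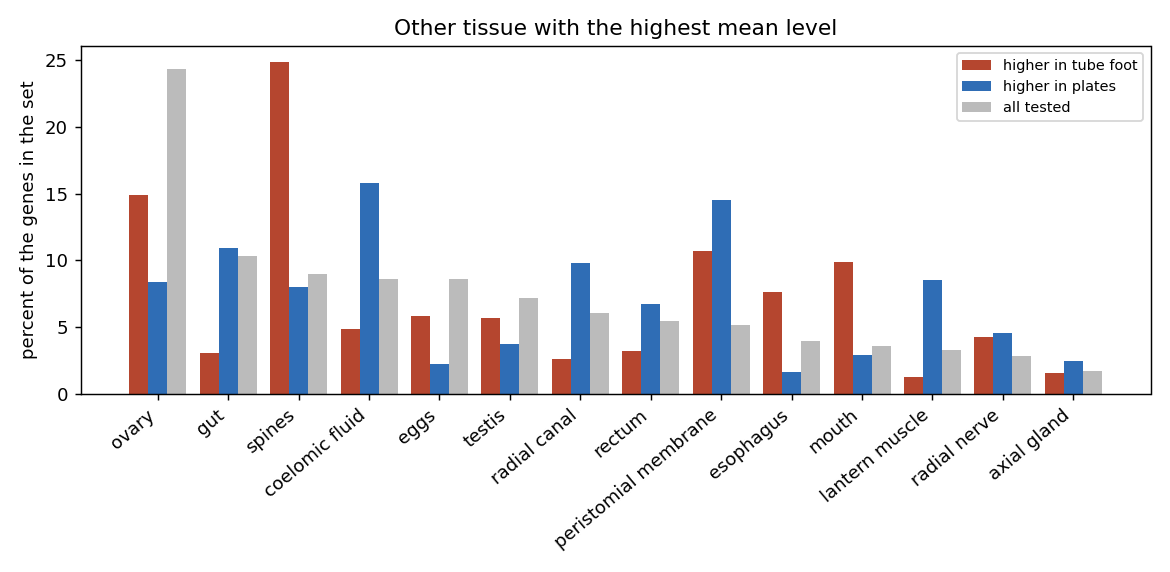
Percent of genes (vertical axis) whose highest mean level outside tube foot and plates fell in each reference tissue (horizontal axis), for 974 genes higher in tube foot (red), 942 higher in the plates (blue) and all 18996 tested genes (grey). The red bar is tallest at the spines (24.8%) and the blue bar at coelomic fluid (15.8%), while ovary leads among all tested genes (24.4%).

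Lists of genes high in a single reference tissue were built from libraries outside the comparison, at 10 CPM or more and at least 4-fold above every other replicated reference type. Every library of the tissue also had to lie above every library of those other types. Tube foot and plates were not used in this rule, and the single libraries of spines and coelomic fluid were used for their own lists only, so a listed gene may also be high in these. What part tissue of these kinds has in the calls was not tested. For coelomic fluid, where 100 CPM and 8-fold were required, all 35 listed genes were tested and all 35 had log2 fold changes below 0, with a median of -1.49, against 0.01 over all tested genes. In the test, 13 of the 35 (37.1%) were higher in the plates and 0 higher in tube foot, against 4.96% and 5.13% of all tested genes. The list took 0.0529% to 0.120% of the plate counts and 0.0200% to 0.0295% of the tube foot counts, without overlap. Its share was 0.0424% to 0.0749% in the spines and 0.0529% to 0.0617% in the peristomial membrane. These also lay above every tube foot library, so the higher share was not particular to the plates. LOC121426614, the listed gene with the largest change among those above 10 CPM in the plates and named after its values were seen, measured 5.59, 26.4, 9.43 and 7.70 CPM in the plates and 0.981, 1.00, 0.864 and 0.128 CPM in tube foot (log2 fold change -4.04 ± 0.70, edgeR adjusted p = 0.00727). It stood at 744 CPM in the coelomic fluid library. The count of 13 depended on single libraries, being 7, 8 and 6 without tube foot replicates 1, 2 and 3 and 7 without plates replicate 2.

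The peristomial membrane list changed in both directions. Of 119 genes tested, 25 (21.0%) were higher in tube foot and 24 (20.2%) higher in the plates, both above the shares over all tested genes. The list's median log2 fold change was 0.36. Its summed share was 2.46% to 5.09% of tube foot counts and 1.31% to 2.15% of plate counts, without overlap. The share was 1.67% to 1.95% in the peristomial membrane itself and 2.07% to 2.83% in the spines, so the listed genes were not confined to the membrane. LOC121422208, the most abundant of the genes higher in tube foot, meets the rule of this list. It measured 6740 to 19960 CPM in tube foot and 1504 to 3105 CPM in the plates. The summed share without it was not computed, so the lack of overlap may rest on this 1 gene. With an 8-fold margin, 13 of 68 tested genes were higher and 17 lower, with a median of -0.01. At the extremes were LOC121431846, at 204, 841, 672 and 1426 CPM in tube foot and 10.9, 0.544, 1.30 and 1.45 CPM in the plates, and LOC121411680, at 0.560, 0.0717, 0.0576 and 0.340 CPM in tube foot and 232, 241, 270 and 334 CPM in the plates. Their log2 fold changes were 7.77 ± 1.16 (edgeR adjusted p = 0.00420) and -10.06 ± 0.69 (adjusted p = 0.000498), and both were named after their values were seen. Without plates replicate 2 the count higher in tube foot was 15.

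The spine list changed in both directions, and its balance depended on the margin. Of 97 genes tested, 23 (23.7%) were higher in tube foot and 12 (12.4%) higher in the plates, against 5.13% and 4.96% of all tested genes, and the median log2 fold change was 0.65. With an 8-fold margin, 3 of 32 tested genes were higher and 10 lower, and the median was -1.18. The summed counts were 0.422% to 0.938% of tube foot counts and 0.882% to 2.17% of plate counts, ranges that overlap only through tube foot replicate 1 and plates replicate 1. LOC121419866 and LOC121424524, both higher in the plates, belong to this list and are its 2 most abundant genes in the plates. Without plates replicate 2, 15 listed genes were higher in tube foot.

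Of the mouth list, 7 of 28 tested genes (25%) were higher in tube foot and 2 (7.14%) lower, against 5.13% and 4.96% of all tested genes, with a median log2 fold change of 1.12. With an 8-fold margin 1 of 10 tested genes was higher and 0 lower, with a median of 0.26. The list took 0.154% to 0.251% of tube foot counts and 0.0359% to 0.0652% of plate counts. Its share was 0.280%, 0.135%, 0.302% and 0.401% in the green, mixed, red and white spines, so it was not particular to tube foot. LOC121417178 of this list, named after its values were seen, measured 44.1, 54.9, 67.1 and 312 CPM in tube foot and 1.14, 0.0640, 0.245 and 0.198 CPM in the plates, and averaged 1737 CPM in the mouth. Its log2 fold change was 8.08 ± 1.08 (edgeR adjusted p = 0.00287), and 9.45 without plates replicate 1 (adjusted p = 0.00241).

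Of the gut list, 0 of 118 tested genes were higher in tube foot and 20 (16.9%) lower, against 5.13% and 4.96% of all tested genes, with a median of -0.85. Most of the 20 averaged under 10 CPM in the plates, with means from 0.784 CPM (LOC121428827) to 71.3 CPM (LOC121431731). With an 8-fold margin 0 of 61 tested genes were higher and 13 lower. Its summed share overlapped between the groups, at 0.0842% to 0.0922% of counts in tube foot and 0.0847% to 0.166% in the plates. Of the radial canal list, 1 of 28 tested genes (3.57%) was higher in tube foot and 4 (14.3%) were lower, with a median of -0.51. Its summed share was 0.163% to 0.356% in tube foot, and 0.340%, 0.0829%, 0.131% and 0.0691% in plates replicates 1 to 4, so the groups overlapped only through plates replicate 1. LOC121406130, the canal gene with the largest change and named after its values were seen, ranged from 23.5 to 917 CPM over the plate libraries, with replicate 1 the highest, and reached no more than 0.896 CPM in tube foot (log2 fold change -9.82 ± 1.74, edgeR adjusted p = 0.00781). Leaving out plates replicate 1 lowered the plate mean to 93.4 CPM, with a log2 fold change of -8.12 (adjusted p = 0.0111). Its mean in the radial canal was 7990 CPM.

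All 9 tested genes of the radial nerve list had log2 fold changes above 0, with a median of 0.78, against 9642 of all 18996 tested genes above 0. Of the 9, 1 (11.1%) was called higher in tube foot, against 5.13% of all tested genes. The list took 0.0131% to 0.0193% of tube foot counts and 0.00641% to 0.0106% of plate counts, which did not overlap. Of 4 lantern muscle genes tested, 0 were higher in tube foot and 1 was lower, LOC121409219 at a mean of 2.47 CPM in the plates. The ovary list was the longest, with 41 of 1055 tested genes higher in tube foot and 16 lower, both below the shares over all genes. Eggs had 1 of 24 higher and 2 lower, testis 1 of 32 in each direction, the esophagus 1 of 3 higher, the rectum 0 of 14 in either direction, and the axial gland had no gene that met the rule. Over all tested genes 5.13% were higher and 4.96% lower, and counts from lists this short are not read further.

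**Figure D4:**
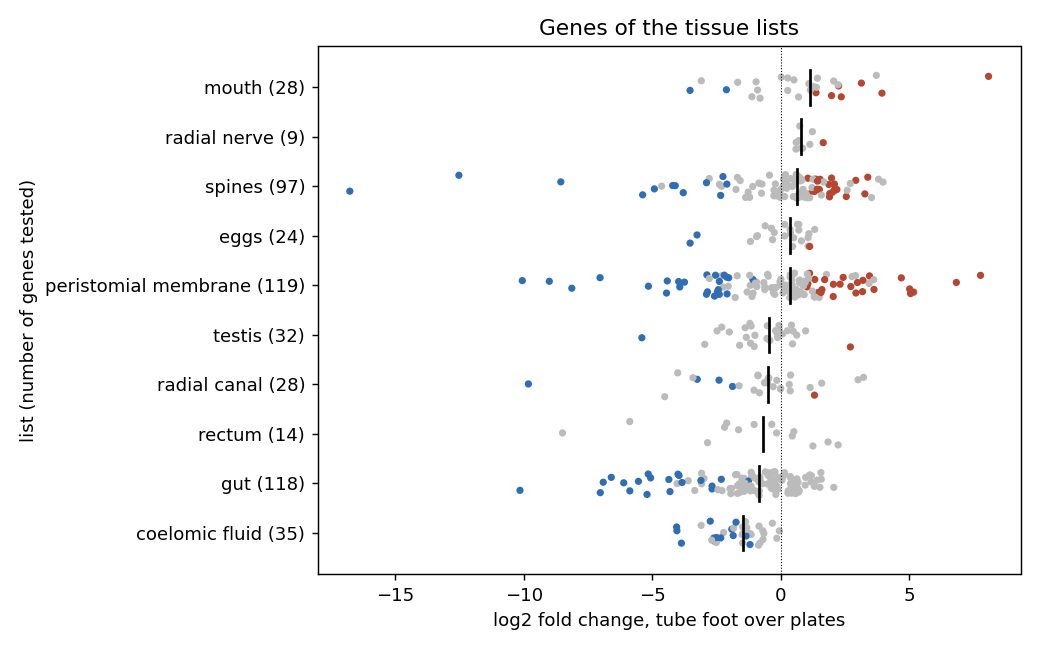
Log2 fold change of tube foot over plates (horizontal axis) for each tested gene of 10 lists of genes high in another tissue (vertical axis, number of genes tested in brackets), with calls higher in tube foot in red, calls higher in the plates in blue, other genes in grey and the list median as a black bar. All 35 coelomic fluid genes lie below 0, the peristomial membrane and spine lists reach far to both sides, and no gut gene is red.

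A list for tube foot was drawn up with the values of these libraries in view and is given as a description. It held the 96 genes at 10 CPM or more and 4-fold above every other replicated type outside the plates. Every tube foot library also had to lie above every library of those types. Spines were not part of its rule, and LOC121422208, abundant in spines, is among its genes. In the test 84 of them were called higher in tube foot than in the plates. They took 5.93% to 8.51% of tube foot counts and 1.10%, 0.708%, 0.775% and 0.597% of counts in plates replicates 1 to 4. The 4 spine libraries held 1.32% to 1.94%. In 65 of the 84 called genes the highest plate value was in plates replicate 1, which held the highest plate value of 23.2% of all tested genes. The median level of the 84 genes in that library was 9.70% of the tube foot mean, against 2.51%, 2.68% and 1.74% in replicates 2 to 4. Without plates replicate 1, 89 of the 96 genes were called. What this library's excess contributes to other genes was not tested.

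**Figure D5:**
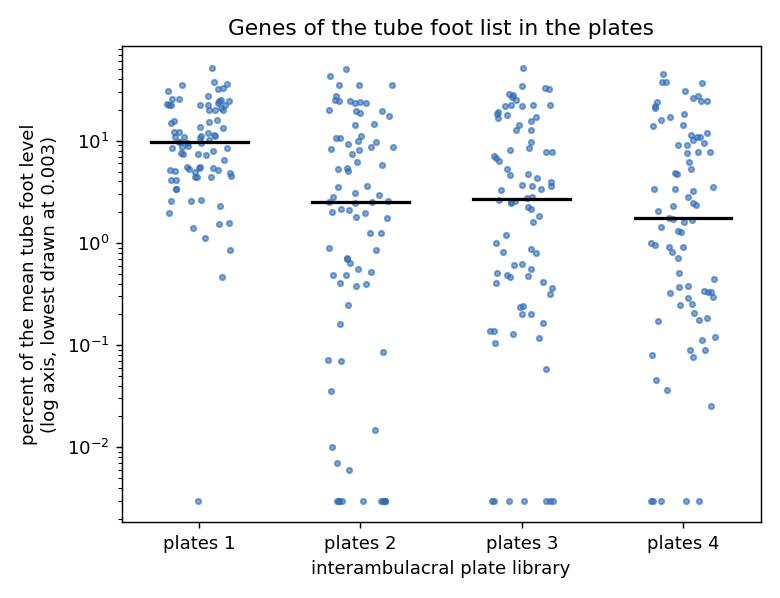
Level of the 84 genes of the tube foot list that were called higher in tube foot, in each plate library (horizontal axis), as a percent of the gene's mean in tube foot (vertical axis, log scale, values under 0.003 drawn at 0.003), with black bars at medians. The median is 9.70% in replicate 1 and between 1.74% and 2.68% in the other plate libraries.

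The same rule applied to the plates gave 24 genes, of which 19 were called. They took 0.820% to 2.38% of plate counts and 0.195% to 1.01% of tube foot counts. Their share was 1.77%, 1.69% and 0.837% in the green, mixed and red spines and 0.0836% in the white spine, so the white spine library had the lowest share of the 4.

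Radial canal and peristomial membrane, which share no library with the main comparison, gave a second contrast. It set a part of the water vascular system against the soft skin around the mouth. What the membrane libraries held besides skin was not tested. Of 18815 genes tested, 2147 (11.4%) were higher in the canal and 2557 (13.6%) higher in the membrane. Among the genes higher in tube foot, 822 were tested there, and 23 (2.80%) were higher in the canal while 256 (31.1%) were higher in the membrane. Over the 17991 genes tested in both comparisons the shares were 11.3% and 13.7%. Genes higher in the plates gave 126 of 877 (14.4%) higher in the canal and 256 of 877 (29.2%) higher in the membrane. The tube foot genes were thus called higher in the canal less frequently than the table as a whole, and both sets were called higher in the membrane at more than the background share, a comparison of counts with no test. The counts of this contrast depended on the peristomial libraries, with 961, 1019 and 1213 genes higher in the canal without replicates 1, 2 and 3 and 1692 higher in the membrane without replicate 3.

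In overall profile neither tissue resembled the radial canal most. The mean profile of tube foot had a Spearman's rho of 0.901 with the spines, 0.896 with the peristomial membrane, 0.883 with the plates and 0.741 with the radial canal. For the plates the values were 0.929 with the peristomial membrane, 0.905 with the spines and 0.795 with the radial canal. These are descriptions across genes. The spread between libraries was wider in tube foot, with a median SD of log2 CPM of 0.485 against 0.348 in the plates.

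Called genes lay near each other in the genome more frequently than tested genes did as a whole. In the gene order of Lvar_3.0, 222 of the 974 genes higher in tube foot (22.8%) were next to another such gene, against 7.65% of all tested genes. For the genes higher in the plates the numbers were 210 of 942 (22.3%) and 7.69%. Uninterrupted runs of at least 3 called genes numbered 18 for tube foot and 11 for the plates, and the longest held 5 and 4 genes. Shared reads of near-identical neighbours could place neighbours on the same side, which was not tested.

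A run of 4 genes was high in tube foot and low in the plates: LOC121422543, LOC121422635, LOC121406544 and LOC121431846, named after their values were seen. LOC121406544, the most abundant, measured 242, 1428, 607 and 1429 CPM in tube foot and 23.9, 3.49, 1.86 and 3.08 CPM in the plates. In all 4 genes tube foot replicate 1 was the lowest of its group and plates replicate 1 the highest of its group. Their log2 fold changes were 8.57 ± 1.29, 8.65 ± 0.89, 6.83 ± 1.07 and 7.77 ± 1.16 (edgeR adjusted p = 0.00434, 0.00121, 0.00493 and 0.00420). Without plates replicate 1 they were 10.82, 10.76, 8.37 and 9.49, the second against plate libraries with no count of the gene. No spine library exceeded 1.10 CPM for any of them, and LOC121406544 averaged 112 CPM in the peristomial membrane.

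A run of 3 genes was nearly absent from tube foot: LOC121410684, LOC121410683 and LOC121410685, also named after their values were seen. LOC121410684 was low throughout, at 1.92, 7.26, 1.86 and 3.57 CPM in the plates, 3.28 CPM in testis and 4.28, 1.07, 0.707 and 0.0814 CPM in the green, mixed, red and white spines. LOC121410683 measured 245, 505, 698 and 620 CPM in the plates and 0.140, 0.717, 0 and 0.0851 CPM in tube foot (log2 fold change -11.11 ± 1.03, edgeR adjusted p = 0.000830). It stood at 1115, 689 and 398 CPM in the green, mixed and red spines and at 10.9 CPM in the white. LOC121410685 measured 93.6, 215, 216 and 151 CPM in the plates and had 3 counts in all of tube foot. It stood at 124, 69.9 and 75.9 CPM in the green, mixed and red spines and at 2.04 CPM in the white. The next gene in order, LOC121410689, broke the pattern in tube foot, at 3408, 7651, 1944 and 2099 CPM there and 1193, 1797, 2940 and 1947 CPM in the plates (log2 fold change 0.93 ± 0.49, edgeR adjusted p = 0.272). Its spine levels were 3380, 2472 and 1121 CPM in the green, mixed and red libraries and 22.02 CPM in the white library.

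By annotated type, 940 of 17697 tested protein-coding genes (5.31%) were higher in tube foot and 896 (5.06%) higher in the plates, near the 5.13% and 4.96% of all tested genes. Of 961 long non-coding RNA genes, 25 (2.60%) were higher and 24 (2.50%) lower, and of 307 pseudogenes, 9 (2.93%) were higher and 21 (6.84%) lower. The genes of the 10 identifiers named by rule are each annotated as protein coding.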

How the data were processed

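The authors deposited 1 table of whole-number read counts for each gene and library, with no scaling. The submitters' processing notes list STAR, featureCounts and DESeq2 and give no versions. Genome build and strand setting are not given in the sources used here, so genes that overlap or share reads are uncertain. The 3 lines with displaced fields or without counts were dropped, and all 25887 remaining identifiers matched RefSeq (Lvar_3.0), used for gene type and order only. Genes were tested with edgeR 4.0.16 (glmQLFit and glmQLFTest, TMM, filterByExpr, Benjamini-Hochberg over all tested genes; limma 3.58.1, R 4.3.3). CPM were TMM-scaled over all 64 libraries, and 0.5 CPM was added in the fold rules of the tissue lists. Spines counted as 1 type in the assignment of genes to tissues and for their own list, and were not used in the rules of the other lists. The labels do not say whether libraries with the same replicate number share an animal, and the main fit took them as unpaired. Named by rule were, in each direction, the 2 largest folds and the 3 highest levels among called genes with at least 10 CPM and no overlap. Members and lists were chosen with earlier results of these data known. Planned lists by protein features and product names were not used here, for want of sequences and names. Other settings were DESeq2 1.42.0 (Wald test, size factors), no filter, glmTreat, 1 fit of all adult types, a replicate block and left-out libraries. In simulated data for tube foot against plates (18646 genes tested), 200 genes were changed. Of genes changed by 1, 2 and 4 on the log2 scale, 1.49%, 26.9% and 78.8% were recovered.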

Additional observations from a re-analysis of the deposited data

Results flagged for a closer look

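Of 52 groups of 4 values examined (the named genes, library totals and tissue lists), 9 held a library far from the other 3, where chance alone gives about 1 in 20 for independent, normally distributed values. CPM need not follow that distribution, and 2 of the 9 are 2 counts against libraries at 0. Plates replicate 1 stood out for LOC121413943 (547 CPM), for LOC121413940 (379 CPM) and for its total of 32268962 counts. Tube foot replicate 1 stood out for LOC121406559 (498 CPM) and for the 0.0701 CPM of LOC121419866, which is 2 counts. Tube foot replicate 4 held 3.36 CPM of LOC121424524, and plates replicate 3 held 0.0701 CPM of LOC121417076, also 2 counts. Plates replicate 4 had the highest plate share of the radial nerve list (0.0106% of counts) and of the rectum list (0.0672%, against 0.00541% to 0.00640% in the other plate libraries).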

How the results depend on the processing

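No called gene changed direction under any setting tried. Counts of genes higher and lower in tube foot were 332 and 350 with glmTreat against a fold of 2, 95 and 182 in 1 fit of the 53 adult libraries, and 632 to 895 and 615 to 915 with a library left out. DESeq2 size factors (985 and 938), the DESeq2 Wald test (1398 and 1360) and no filter (952 and 939) stayed within 1.5 times. Deviations from group means gave no sign of pairing by replicate number. Same-number correlations were -0.02 to 0.07 and others -0.08 to 0.06, and 1 of 4 tube foot libraries was closest to its own number. A weak effect of shared animals could escape this check. The replicate block gave 675 and 662. Radial canal over peristomial membrane gave 793 and 1513 with glmTreat, 859 and 1289 with the replicate block, and 961 to 2152 and 1692 to 2820 with a library left out. The pseudocount is part of the list rule and was not varied. With an 8-fold margin, 13 gut, 17 peristomial and 10 spine genes were lower, and 1 mouth, 13 peristomial and 3 spine genes were higher. At 50 CPM, 14 peristomial and 10 spine genes were higher and 12 and 6 lower. Settings added after seeing the data were the coelomic fluid list at 16-fold (4 lower) or 500 CPM (6 lower), lists with a library left out (coelomic 6 to 17 and gut 14 to 25 lower, mouth 5 to 7 higher, peristomial 15 to 25 higher and 18 to 24 lower, spines 15 to 28 higher and 10 to 14 lower), and the tissue assignment without coelomic fluid (peristomial membrane 18.7% of plate genes). Leaving out spines gave the peristomial membrane 20.5% and the mouth 14.99% of tube foot genes, and the membrane 17.8% of plate genes. Genes at 0 numbered 9 in tube foot and 8 in the plates at 5 CPM, and 2 without plates replicate 1. For the 10 named genes, 104 of the recomputed values kept their call and 35 lost it; the cause was not tested. LOC121413940 lost its call in 11 settings, LOC121413943 in 9, LOC121406559 in 6, LOC121423647 in 5, LOC121418762 in 2, and LOC121417076 and LOC121422208 in 1 each. Genes under the filter on low counts were not tested in the main fit, among them LOC121414860 and LOC121425621.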
